A study of Mus musculus with 6 samples.

Results

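The genes described here are 7 mouse genes of vitamin A (retinoid) binding and metabolism, namely Rbp7, Rbp2, Aldh1a1, Bco1, Lrat, Rara and Rxra. They were taken by name from the 31319 genes of the deposited matrices, where each was found by its Ensembl identifier. All 7 were among the 19046 genes that passed the filter on low counts. Rbp7 was selected on its lower counts in SCM in these same samples, so its values in that comparison are a description, with no test.

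The data are counts of UMIs, the tags that mark captured RNA molecules, in single nuclei of jejunal organoids from C57BL/6 mice aged 8 to 12 weeks. Organoids are epithelial cultures grown from intestinal crypts. They were kept in medium conditioned either by quiescent mouse embryonic fibroblasts (QCM) or by senescent ones (SCM), with 3 samples per medium, and the comparison asks how the secretions of senescent cells act on the epithelium. Quiescence came from serum withdrawal and senescence from X-rays or doxorubicin, and the sources used here do not say which of these gave the medium of the nuclei. The study's methods take a replicate to be a mouse unless stated otherwise, but the labels tie no sample to an animal and do not say whether samples of the same number share one.

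The files held 38154 nuclei, from 430 in SCM replicate 1 to 10833 in SCM replicate 3, and the samples summed to between 4071926 UMIs (SCM replicate 1) and 41035733 UMIs (QCM replicate 1). A nucleus of QCM replicate 1 had a median of 8260 UMIs, and the medians of the others lay between 1578 and 3156.5. Genes of ribosomal proteins took 14.2% of the UMIs of QCM replicate 1 and 2.64% to 10.4% of those of the others. SCM replicate 1 shared 175 of its 430 barcodes (40.7%) with QCM replicate 1, whereas no other pair of samples shared more than 36, or 0.358% of the smaller sample. The nuclei with these barcodes held 49.9% of the UMIs of SCM replicate 1 and 4.30% of those of QCM replicate 1, and 40 of the 175 (22.9%) had the same cluster in both, where the cluster sizes alone would give 14.5%. Results are therefore given also without these nuclei, without either sample numbered 1, and with replicates 2 and 3 alone. The summed level of 10 fibroblast markers was 1.90 to 7.53 CPM (a gene's UMIs scaled to 1000000 UMIs of the sample) in QCM and 2.46 to 36.0 CPM in SCM, highest in SCM replicate 2, where Fn1 alone had 32.5 CPM. The other 9 fibroblast markers summed to 1.78 to 6.52 CPM in QCM and 2.13 to 3.46 CPM in SCM, and that of 7 endothelial and 7 immune markers lay between 2.84 and 15.2 CPM in every sample.

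The pathway starts in the gut. Carotenoids from food are cut to retinal by Bco1, and retinal and retinol are carried in the cytosol of absorptive enterocytes by Rbp2, a small lipid-binding protein. Lrat joins retinol to a fatty acid, which gives the retinyl esters that leave the enterocyte in chylomicrons. Aldh1a1 oxidises retinal to retinoic acid, and retinoic acid acts through nuclear receptors such as Rara, which bind DNA in pairs with a retinoid X receptor such as Rxra. Rbp7 belongs to the same protein family as Rbp2 and binds retinol, and it is known mainly from fat and blood vessels. The organoids have no vessels of their own.

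Rbp7 (ENSMUSG00000028996, GRCm38 chromosome 4, 149449687 to 149454978, minus strand) stood lower in every SCM sample than in every QCM sample. QCM replicates 1, 2 and 3 had 330, 152 and 96 UMIs, or 8.04, 6.26 and 4.82 CPM. SCM replicates 1, 2 and 3 had 2, 31 and 62 UMIs, or 0.491, 1.49 and 2.31 CPM. The 2 UMIs of SCM replicate 1 give an exact 95% counting interval of 0.0595 to 1.77 CPM, for counting error only. The means were 6.37 ± 1.61 CPM (SD, n = 3) in QCM and 1.43 ± 0.913 CPM (SD, n = 3) in SCM, which edgeR put at -2.19 ± 0.51 (SE) as a log2 ratio, SCM over QCM. Among all genes tested, 2.09% had every SCM sample below every QCM sample and 4.99% every SCM sample above, 4.82% had a log2 ratio below -1, and 4.42% did with replicates 2 and 3 alone. Rbp7 was chosen for this difference, and nothing is read from these shares.

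The value of Rbp7 under other choices of samples and nuclei is given as part of the same description. With replicates 2 and 3 alone the log2 ratio was -1.56, without QCM replicate 1 it was -1.83, and without the nuclei of shared barcodes it was -2.11. Over all ways of leaving out 1 sample it lay between -2.73 and -1.83. Adding each sample's share of ribosomal protein UMIs to the fit gave -1.72. With 9 clusters given the same weight in each sample, the plain log2 ratio of mean CPM, without an edgeR fit, was -2.04. QCM replicate 1 was the highest sample for Rbp7 too, at 1.45 times the mean of the other QCM samples. In bulk sums such as these, fewer nuclei with the RNA and less RNA per nucleus cannot be told apart.

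**Figure D1:**
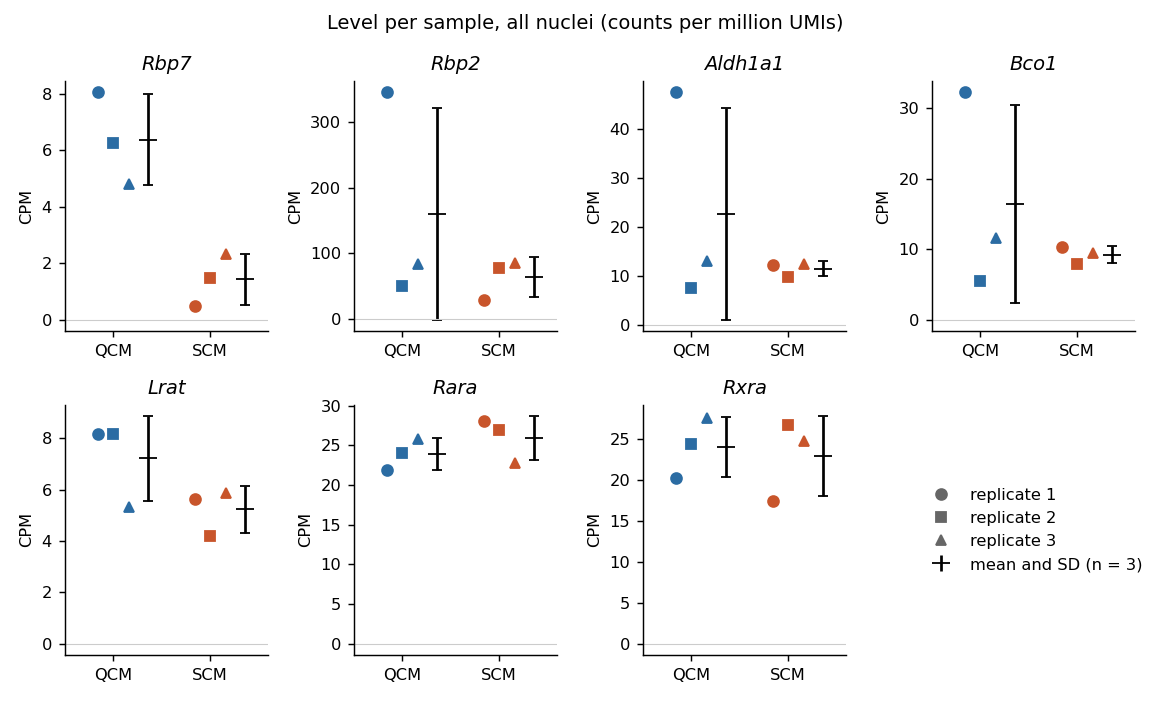
Level of the 7 genes in each sample, all nuclei summed, in CPM on axes that include 0; blue points are QCM, orange points SCM, point shapes give the replicate number and the black bars show the mean and SD of 3 samples. The SCM samples of Rbp7, at 0.491 to 2.31 CPM, lie below its QCM samples at 4.82 to 8.04 CPM, while QCM replicate 1 stands far above all other samples for Rbp2, Aldh1a1 and Bco1.

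Rbp2, Aldh1a1 and Bco1 showed another pattern, in which QCM replicate 1 stood apart from the other 5 samples. Rbp2 (ENSMUSG00000032454, chromosome 9, 98486115 to 98509781, plus strand) had 345, 50.7 and 83.5 CPM in QCM replicates 1, 2 and 3, and 28.7, 77.3 and 85.4 CPM in SCM replicates 1, 2 and 3. The SCM samples thus lay below, among and above QCM replicates 2 and 3. The edgeR log2 ratio was -1.59 ± 0.79 (SE), with an adjusted p of 0.927. This ratio was -0.09 when QCM replicate 1 was left out and 0.23 in replicates 2 and 3. An adjusted p of 0.927 was the smallest of all 19046 genes tested by edgeR. Here and below it is therefore no sign of equal levels. Aldh1a1 (ENSMUSG00000053279, chromosome 19, 20492715 to 20643465, plus strand) had 47.4, 7.54 and 13.1 CPM in the QCM samples and 12.3, 9.76 and 12.5 CPM in the SCM samples. Its edgeR log2 ratio was -1.26 ± 0.69 (SE), with an adjusted p of 0.927, and it was 0.11 without QCM replicate 1.

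Bco1 (ENSMUSG00000031845, chromosome 8, 117095854 to 117133720, plus strand) had 32.2, 5.52 and 11.6 CPM in the QCM samples and 10.3, 7.94 and 9.48 CPM in the SCM samples. Every SCM sample lay between QCM replicates 2 and 3. The edgeR log2 ratio was -1.11 ± 0.65 (SE), with an adjusted p of 0.927, and it was 0.05 without QCM replicate 1. Leaving out the nuclei of shared barcodes gave edgeR log2 ratios of -1.58 for Rbp2, -1.39 for Aldh1a1 and -0.98 for Bco1, since the high level of QCM replicate 1 was there in its other nuclei too, with 346 CPM of Rbp2, 47.3 CPM of Aldh1a1 and 31.9 CPM of Bco1. The unadjusted edgeR p was 0.081 for Rbp2, 0.107 for Aldh1a1 and 0.124 for Bco1. None of the 3 genes passed the test between the media.

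The excess of QCM replicate 1 over the mean of the other QCM samples was 5.15-fold for Rbp2, 4.59-fold for Aldh1a1 and 3.77-fold for Bco1. Of the 19046 genes tested, 53 (0.278%), 68 (0.357%) and 126 (0.662%) had a ratio at least that large, and the median over all of them was 0.768. These 3 genes were picked out after their values were seen. The fixed list of 24 enterocyte markers, from which the 7 genes were left out, had a median ratio of 2.70, and the 7 Paneth markers tested had 3.36. The summed level of the enterocyte markers was 7858, 2521 and 3941 CPM in the QCM samples and 1505, 2609 and 3175 CPM in the SCM samples. When each sample's ribosomal protein share was added to the fit, the edgeR log2 ratios were above 0, at 0.44 for Rbp2, 0.69 for Aldh1a1 and 0.73 for Bco1, with an adjusted p of 1.00 each. The part of enterocyte content and of the ribosomal protein share in these ratios was not tested.

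The bases just before the RefSeq starts of Rbp2 and Bco1 are shown because both genes stood far higher in QCM replicate 1 than in any other sample and their windows share a short element, and that of Rbp7 is shown because its pattern was another. Over the other 5 samples Rbp2 and Bco1 did not keep a common order, since SCM replicate 1 was the lowest for Rbp2 and second to QCM replicate 3 for Bco1. Each is the 130 bases before the start on the gene's own strand, in GRCm38.p6, at chr9:98490407-98490536 (plus strand), chr8:117095735-117095864 (plus strand) and chr4:149454969-149455098 (minus strand). Capitals mark matches, on either strand, to the nuclear receptor half-site AGGTCA, to its direct repeats, or to TGACCTTTGAC, the longest stretch around a half-site that the Rbp2 and Bco1 windows share.
Rbp2: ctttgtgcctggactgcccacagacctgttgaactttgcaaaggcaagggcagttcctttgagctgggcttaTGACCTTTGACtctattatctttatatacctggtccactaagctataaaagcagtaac
Bco1: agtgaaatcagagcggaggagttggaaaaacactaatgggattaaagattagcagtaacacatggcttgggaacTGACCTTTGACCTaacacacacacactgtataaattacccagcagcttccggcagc
Rbp7: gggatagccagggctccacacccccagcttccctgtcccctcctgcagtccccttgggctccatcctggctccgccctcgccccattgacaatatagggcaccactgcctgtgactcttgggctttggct

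In Bco1 the capitals span 56 to 44 bases before the start. Read on the other strand, they are a direct repeat of AGGTCA with a spacing of 1 base (AGGTCANAGGTCA). This spacing is known for pairs of a retinoid X receptor but is not particular to them. That repeat was found in 13 (0.0396%) of the 32817 distinct promoter windows of RefSeq, which run from 250 bases before to 50 bases after a start. In Rbp2 the capitals span 58 to 48 bases before the start. They are TGACCTTTGAC, which in Bco1 spans 56 to 46 bases before the start and lies within the direct repeat. It was chosen after the windows had been read, was found in 12 windows (0.0366%), and overlaps the half-site. The half-site alone is common, at 16.3% of all windows, and was found in 4 of the 12 windows of the 7 genes, those of Rbp2 and Bco1 and a later start of Rxra and of Rara. Direct repeats with 2 or 5 bases between the half-sites, the spacings known for retinoic acid receptors, were each found in 3 windows (0.0091%), none of them of the 7 genes. Neither window of Aldh1a1 held any of these letters. A match is a stretch of letters and not a measured site.

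Lrat, Rara and Rxra had narrower spreads. Lrat (ENSMUSG00000028003, chromosome 3, 82892579 to 82903973, minus strand) had 8.19, 8.15 and 5.32 CPM in the QCM samples and 5.65, 4.18 and 5.86 CPM in the SCM samples. Only QCM replicate 3 overlapped the SCM samples. The edgeR log2 ratio was -0.65 ± 0.32 (SE), with an adjusted p of 0.927 and an unadjusted p of 0.077. It lay between -0.86 and -0.40 over the ways of leaving out 1 sample.

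Rara (ENSMUSG00000037992, chromosome 11, 98927818 to 98974942, plus strand) had 21.8, 24.0 and 25.8 CPM in the QCM samples and 28.0, 26.9 and 22.7 CPM in the SCM samples, which overlapped. Its edgeR log2 ratio was -0.05 ± 0.17 (SE), with an adjusted p of 0.975 and a 95% interval of -0.44 to 0.34. Scaling by library size alone turned this to 0.11, but it also raised the median over all genes by 0.15, to 0.14, and relative to that median Rara stood at -0.03. Rxra (ENSMUSG00000015846, chromosome 2, 27676440 to 27762957, plus strand) had 20.2, 24.4 and 27.5 CPM in the QCM samples and 17.4, 26.6 and 24.7 CPM in the SCM samples. Its edgeR log2 ratio was -0.21 ± 0.22 (SE), with an adjusted p of 0.929 and a 95% interval of -0.71 to 0.30. For both receptors the interval leaves out a change of 2-fold in either direction.

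**Figure D2:**
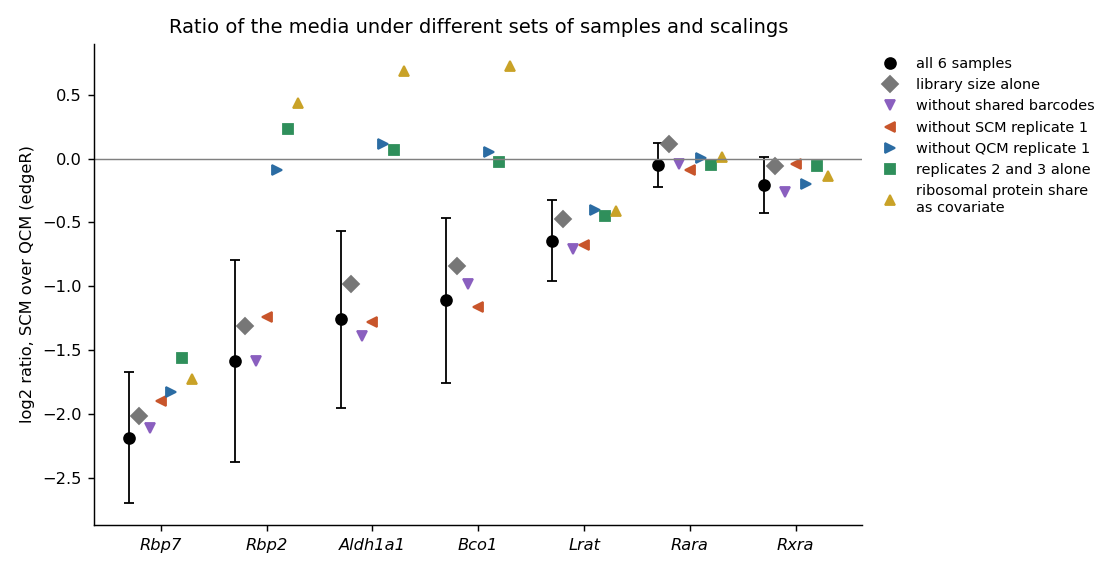
edgeR log2 ratio of SCM to QCM for each gene (vertical axis) with all 6 samples (black, bars show the SE) and with other samples, nuclei, scaling or a covariate (coloured points). Rbp7 stays between -2.19 and -1.56 under the settings drawn, while Rbp2, Aldh1a1 and Bco1 move from below -1 to near 0 without QCM replicate 1 and above 0 once the ribosomal protein share is in the fit.

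As a background to these counts, edgeR called 0 of the 19046 genes between the media (0%), with 866 (4.55%) at an unadjusted p under 0.05. By voom with limma 0 were called as well, and 656 (3.44%) had such an unadjusted p. By DESeq2 21 genes (0.11%) passed. None of the 6 genes other than Rbp7 was called by any of the 3 tools. The log2 ratios of these 6 genes were all below 0 in edgeR, where 51.4% of all genes were, and without QCM replicate 1 those of Aldh1a1, Bco1 and Rara were above 0.

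The nuclei had been placed by the authors in 15 clusters, numbered 0 to 14 and given without names, which were made from the expression of these same nuclei, so the levels by cluster are a description. Cluster 8 was called enterocyte-like because 17 of 24 enterocyte markers were at least 2-fold higher in it than in the other nuclei, among them Alpi, Sis and Lct. By the same rule cluster 6 was goblet- and Paneth-like, with 9 of 10 goblet and 4 of 8 Paneth markers. Clusters 9 and 10 were enteroendocrine-like, with 12 and 8 of 12 markers. Cluster 11 was tuft-like, with 7 of 9, and cluster 7 was fetal-like, with 10 of 14. Cluster 1 had 11 enterocyte, 4 Paneth and 3 goblet markers past that limit and was left unnamed. A level is the mean over those samples in which the cluster had 10 nuclei or more.

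Rbp2, Aldh1a1 and Bco1 had their highest mean in cluster 8, followed by the small unnamed cluster 13. Rbp2 had 258 ± 212 CPM (SD, n = 6) in cluster 8, 167 ± 175 CPM (SD, n = 4) in cluster 13 and 148 ± 154 CPM (SD, n = 6) in cluster 1, and its lowest mean, 51.8 ± 39.2 CPM (SD, n = 3), in cluster 14. Aldh1a1 had 49.5 ± 26.6 CPM (SD, n = 6) in cluster 8, 27.7 ± 29.9 CPM (SD, n = 4) in cluster 13 and 10.9 to 21.5 CPM elsewhere. Bco1 had 50.3 ± 26.6 CPM (SD, n = 6) in cluster 8, 37.9 ± 29.3 CPM (SD, n = 4) in cluster 13 and 7.33 to 14.8 CPM elsewhere. Cluster 8 had the highest level of each of these 3 genes in 4 of the 6 samples. Without QCM replicate 1 it kept the highest mean for each, at 225, 42.6 and 44.4 CPM, but cluster 13 had 80.3 CPM of Rbp2, below the 86.3 CPM of cluster 1, 14.9 CPM of Aldh1a1 and 30.1 CPM of Bco1.

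Rbp7 did not have its highest mean in cluster 8. With the samples summed it was highest in cluster 1, at 9.62 CPM, beside 4.75 CPM in cluster 8. Cluster 1 held 250 of the 673 Rbp7 UMIs, 162 of them from QCM replicate 1. The Rbp7 means over samples ran from 7.02 ± 7.93 CPM (SD, n = 5) in cluster 10 and 6.94 ± 4.95 CPM (SD, n = 6) in cluster 1 down to 2.20 ± 2.17 CPM (SD, n = 5) in cluster 9. In cluster 8 the mean was 3.09 ± 2.92 CPM (SD, n = 6). Clusters 10 and 9 held only 9 Rbp7 UMIs each, and their means leave out SCM replicate 1, which had too few nuclei there. Lrat was highest in cluster 0, at 11.1 ± 7.97 CPM (SD, n = 6), and lowest in cluster 7, at 2.77 ± 2.32 CPM (SD, n = 6). That first place rested on SCM replicate 1, with 3 UMIs in 19 nuclei (26.9 CPM), and without it cluster 0 had 7.92 ± 2.01 CPM (SD, n = 5), below the 9.04 ± 6.43 CPM (SD, n = 5) of cluster 10. Rara and Rxra were the most even, with the highest cluster mean 1.49 and 1.79 times the lowest. For each of the 7 genes, no cluster mean exceeded the next in order by more than the larger SD of that pair, in 14 pairs per gene.

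**Figure D3:**
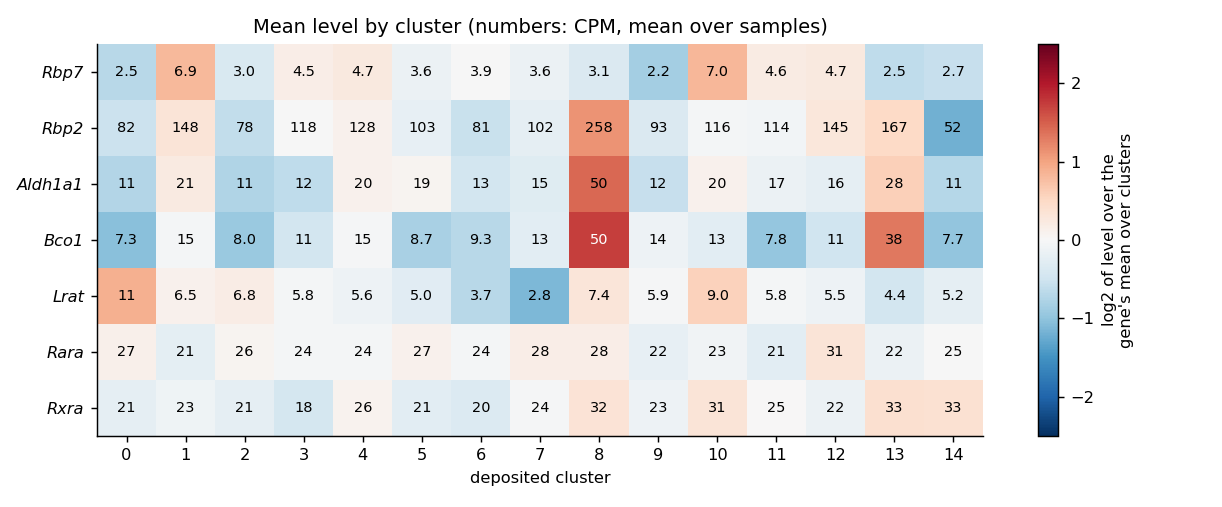
Mean level of each gene (rows) in the deposited clusters 0 to 14 (columns); numbers are CPM and colours give the log2 of the level over the gene's mean over clusters. Rbp2, Aldh1a1 and Bco1 are highest in cluster 8, at 258, 49.5 and 50.3 CPM, whereas Rbp7, Rara and Rxra are not highest there.

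The same UMIs of Rbp7, for which it was chosen, are described next by cluster. Of 13 clusters with at least 2 samples of each medium, every SCM sample was below every QCM sample in 9 and the samples overlapped in 4, and the mean was lower in SCM in all 13. Over all genes tested, 4.91% of gene and cluster pairs with a UMI had every SCM sample below every QCM sample, and nothing is read from that share for Rbp7. In cluster 1 the QCM samples had 162, 30 and 25 UMIs, or 11.5, 13.2 and 7.18 CPM, and the SCM samples 0, 6 and 27 UMIs, or 0, 3.21 and 6.55 CPM. In cluster 0 the QCM samples had 3.66, 5.37 and 2.90 CPM and the SCM samples 0, 1.30 and 1.49 CPM. The 0 of SCM replicate 1 allows up to 18.5 CPM in cluster 1 and 26.9 CPM in cluster 0, which is above the QCM samples there. Without SCM replicate 1 the samples did not overlap in 9 of 13 clusters. No share over all genes was taken for that set, so nothing is read from that count. Some of these clusters rest on few UMIs. Cluster 12 had 2, 1 and 1 UMIs in the QCM samples and 0 in SCM replicates 2 and 3. The edgeR log2 ratio was -1.41 ± 0.52 (SE) in cluster 1 and -1.58 ± 0.47 (SE) in cluster 0, the only clusters where Rbp7 passed the filter on low counts.

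The enterocyte-like nuclei were among the clusters where the media overlapped. In cluster 8 the QCM samples had 7.69, 0 and 4.63 CPM of Rbp7 and the SCM samples 0, 3.24 and 2.98 CPM, and neither medium lay wholly below the other. The 0 of QCM replicate 2 allows up to 3.52 CPM and that of SCM replicate 1 up to 24.9 CPM. Cluster 8 held between 0% and 6.45% of the Rbp7 UMIs of a sample, and between 2.96% and 6.65% of all its UMIs.

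None of the other genes was called between the media in the clusters where it was tested. These were 13 clusters in edgeR for Rbp2, 12 for Rxra, 10 for Rara, 9 each for Aldh1a1 and Bco1 and 3 for Lrat, and DESeq2 gave an adjusted p in 8, 6, 5, 5, 5 and 2 of them. Over the 13 clusters fitted, edgeR called 0 of 130109 gene and cluster pairs (0%), with 7490 at an unadjusted p under 0.05, and DESeq2 called 39. Rbp2 was tested in all 13, with log2 ratios from -1.97 to 0.24, 3 of them at an unadjusted p under 0.05 in edgeR and a smallest adjusted p of 0.473. The smallest edgeR adjusted p was 0.394 for Aldh1a1, 0.580 for Bco1, 0.674 for Lrat, 0.745 for Rara and 0.820 for Rxra. For Rbp2, QCM replicate 1 had 252 CPM in cluster 0 and 457 CPM in cluster 1, where the other QCM samples had 46.4 to 112 CPM and the SCM samples 8.98 to 111 CPM.

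Enterocyte-like nuclei carried more Rbp2, Aldh1a1 and Bco1 than the other nuclei of the same sample in 6 of 6 samples, although in SCM replicate 1 cluster 8 held only 6, 2 and 2 UMIs of them, too few to show a difference. For Bco1, cluster 8 had 79.9, 35.2 and 46.3 CPM in the QCM samples against 28.8, 4.44 and 9.60 CPM in their other nuclei. In the SCM samples it had 16.6, 84.4 and 39.5 CPM against 10.1, 5.60 and 7.90 CPM. The ratio of cluster 8 to the other nuclei ran from 1.64-fold in SCM replicate 1, which had 11 nuclei in cluster 8, to 15.1-fold in SCM replicate 2.

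For Aldh1a1 cluster 8 had 83.9, 25.8 and 41.7 CPM in the QCM samples and 16.6, 74.6 and 54.4 CPM in the SCM samples, or 1.36 to 9.59 times the other nuclei. For Rbp2 it had 421, 178 and 131 CPM in the QCM samples and 49.7, 608 and 159 CPM in the SCM samples, or 1.24 to 9.96 times the other nuclei, and the lowest ratio was that of QCM replicate 1, whose other nuclei had 340 CPM. The difference between cluster 8 and the other nuclei, on the log2(CPM + 0.5) scale, was 0.07 higher in SCM for Bco1, 0.47 for Aldh1a1 and 0.71 for Rbp2. The two-sided exact permutation p over samples was 0.9, 0.6 and 0.5, adjusted over 6 genes to 1.0 each, and the smallest that 3 samples against 3 allow is 0.1. Lrat was higher in cluster 8 in 2 of 6 samples, Rara in 3 and Rxra in 5, with ratios of 0.370 to 4.91, 0.778 to 1.82 and 0.977 to 1.61.

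**Figure D4:**
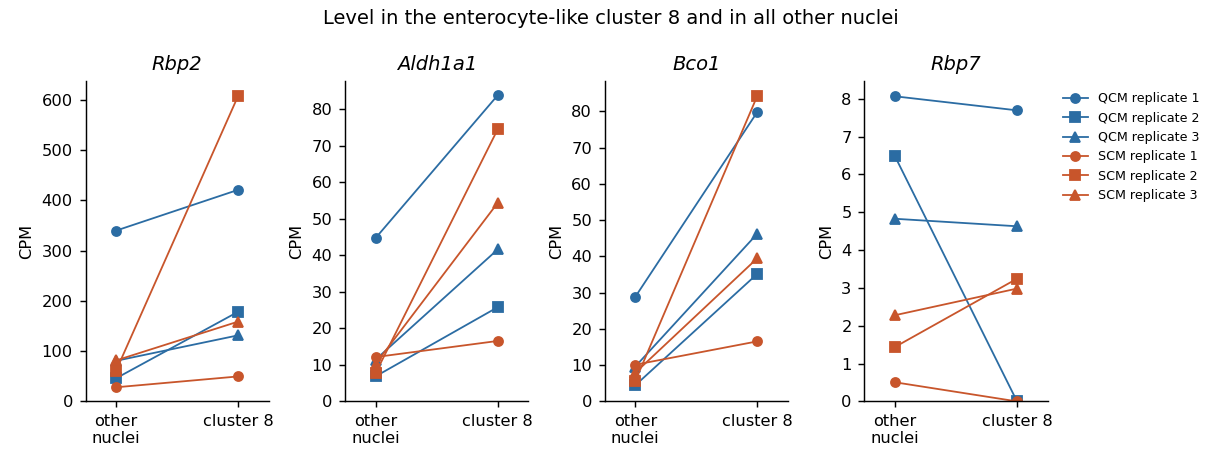
Level of Rbp2, Aldh1a1, Bco1 and Rbp7 in all nuclei outside cluster 8 (left point) and in the enterocyte-like cluster 8 (right point) of each sample, in CPM; lines join the values of a sample, blue is QCM and orange SCM. The lines of Rbp2, Aldh1a1 and Bco1 rise in all 6 samples and start highest in QCM replicate 1, while those of Rbp7 do not rise together.

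To set samples of unequal depth side by side, each nucleus was thinned to 1000 UMIs, which left out no nucleus of QCM replicate 1 and up to 24.7% of those of SCM replicate 1. Thinned, Rbp7 was seen in 39 of 3791 (1.03%), 57 of 7440 (0.766%) and 34 of 8268 (0.411%) nuclei of the QCM samples. It was seen in 0 of 324, 7 of 4798 (0.146%) and 27 of 10354 (0.261%) nuclei of the SCM samples, where the 0 allows a share of up to 0.926%, taken as 3 nuclei. The Wilson 95% intervals of the nearest samples, 0.294% to 0.574% in QCM replicate 3 and 0.179% to 0.379% in SCM replicate 3, overlapped. Without thinning the shares were 8.05%, 1.85% and 0.917% in QCM and 0.465%, 0.617% and 0.572% in SCM. Intervals and limits cover counting error only.

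Rbp2 was seen in 32.2% of the thinned nuclei of QCM replicate 1 and in 3.09% to 8.71% of those of the other 5 samples, and without thinning in 3602 of the 3791 nuclei of QCM replicate 1. Within QCM replicate 1 the thinned share was 34.8% in cluster 8, 33.3% in the tuft-like cluster 11, 23.6% in the enteroendocrine-like clusters 9 and 10 and 37.1% in cluster 1. Tuft and enteroendocrine cells are not known for this gene. The median depths of these clusters before thinning were 8592 and 9448 UMIs, beside 11314 UMIs in cluster 8. Why Rbp2 was seen in these nuclei was not tested. Summed over samples, the share was 16.2% in cluster 1 (Wilson 95% interval 15.3% to 17.1%), where QCM replicate 1 gave 1639 of the 6823 thinned nuclei. By sample, cluster 1 had 5.29% and 11.4% in QCM replicates 2 and 3. In SCM replicates 1, 2 and 3 it had 2.78%, 8.16% and 10.6%. Summed over samples, the share was 14.1% in cluster 8 (12.4% to 16.1%) and 12.6% in cluster 11 (9.41% to 16.6%). In the same sums it was 9.07% in clusters 9 and 10 (7.52% to 10.9%) and 7.50% in the goblet-like cluster 6 (6.33% to 8.86%). QCM replicate 1 gave 187 of the 1366 thinned nuclei of cluster 8 and 72 of the 1102 of clusters 9 and 10. These intervals pool the nuclei of all samples and leave out the spread between samples. In QCM replicate 2 the share was 8.87% in cluster 8 against 3.13% in cluster 11 and 5.75% in clusters 9 and 10. In QCM replicate 3 it was 8.91% against 12.5% and 10.2%. In SCM replicates 2 and 3 it was 10 of 77 and 64 of 484 nuclei (13.2%) in cluster 8, 7.14% and 10.6% in cluster 11, and 7.03% and 6.27% in clusters 9 and 10. SCM replicate 1 had 0 of 11 nuclei in cluster 8 and 1 of 3 in cluster 11. The order of cluster 8 against cluster 11, and against clusters 9 and 10, thus differed between samples. No difference between samples in these shares is read as expression.

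For Bco1 and Aldh1a1 the share of cluster 8, summed over samples, stood above those of the other types. Here too the intervals leave out the spread between samples. Bco1 was seen in 5.42% of the thinned nuclei of cluster 8 (Wilson 95% interval 4.34% to 6.75%), against 1.36% (0.827% to 2.23%) in clusters 9 and 10 and 1.23% (0.478% to 3.11%) in cluster 11. Aldh1a1 was seen in 5.20% (4.14% to 6.51%) of cluster 8, 1.36% (0.827% to 2.23%) of clusters 9 and 10 and 1.84% (0.846% to 3.96%) of cluster 11. By sample, the share of Bco1 was higher in cluster 8 than in either of the others in all samples but SCM replicate 1, where it was 0 of 11 nuclei. That of Aldh1a1 was so except in SCM replicate 1, also 0 of 11, and in QCM replicate 2, with 6 of 248 nuclei (2.42%) in cluster 8 and 2 of 64 (3.13%) in cluster 11. The median depths before thinning were 2367, 2042 and 2081 UMIs. Rbp7, by contrast, was seen in 0.366% of cluster 8 (0.156% to 0.854%) and 0.544% of clusters 9 and 10 (0.250% to 1.18%), and these intervals overlapped. The thinned share of none of the 6 genes other than Rbp7 passed the test between the media, with two-sided exact permutation p of 0.2 to 0.6, adjusted to 0.6 each, and a smallest possible value of 0.1.

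The genes most like each of the 7 over the 15 clusters were named by Pearson's r of log2(CPM + 1), among 14797 genes with at least 5 CPM in a cluster. The 15 points share libraries and depth, and r is given as a description. Rbp2 was most like Apoa4 (r = 0.99), Apoa1 (r = 0.99) and Guca2b (r = 0.98), which encode apolipoproteins and a gut peptide of enterocytes. Aldh1a1 was most like Cyp2c29 (r = 0.93), a cytochrome P450, Mogat2 (r = 0.92), an enzyme of fat absorption, and Atp1b1 (r = 0.92), a sodium pump subunit. Bco1 was most like Alpi (r = 0.93), the alkaline phosphatase of the brush border, Dpep1 (r = 0.93) and 2010003K11Rik (r = 0.89).

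Rbp7 was most like Rpsa-ps12 (r = 0.85), a ribosomal protein pseudogene that may take reads of its parent gene, Rpp25l (r = 0.85) and Nt5c (r = 0.84), which are not enterocyte markers. For the other genes these were Pipox, Armc7 and Gm2788 for Lrat (r = 0.74 to 0.78), Gm9645, Tspan15 and Coro2a for Rara (r = 0.83 to 0.87), and Spsb3, Fbxo47 and 1700001L05Rik for Rxra (r = 0.75 to 0.77). By Spearman's rho instead of Pearson's r, none of the 3 genes named for Aldh1a1, Bco1 or Rara was among the 3 most like, 1 of 3 was for Rbp7 and Rbp2, and 2 of 3 were for Lrat and Rxra. Among the 7 genes themselves, Rbp2, Aldh1a1 and Bco1 followed each other (r = 0.81 to 0.87), and Rbp7 followed none of the other 6 (r = -0.20 to 0.29).

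A list of 71 genes of the pathway, the 7 included, gives the setting of these values. Without the 7, 49 of its genes were tested. Of these edgeR called 0 and 8 had an unadjusted p under 0.05 (4.55% of all genes did), with 34 log2 ratios below 0 (51.4% of all genes), 15 above and a median of -0.30, beside -0.01 over all genes. Marker lists of differentiated cell types lay on the same side, with 22 of 24 enterocyte markers below 0 (median -1.32), 12 of 12 enteroendocrine markers (median -1.10) and 6 of 7 Paneth markers (median -1.23). Nearer 0 were the goblet markers, with 8 of 10 below (median -0.38), and the tuft markers, with 6 of 8 (median -0.29). The proliferation markers, which are not of differentiated cells, were also below 0, 5 of 5 tested (median -0.54). Stem cell markers lay the other way, with 9 of 10 above 0 (median 0.19), as did markers of the fetal gut, with 9 of 12 above 0 (median 1.22). None of these markers was called by edgeR, and their part in the pathway values was not tested. With the 7 genes included the pathway median was -0.31, and it was -0.13 when QCM replicate 1 was left out and -0.12 in replicates 2 and 3.

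Among the retinoid binding proteins other than Rbp7, 4 of 5 tested were below 0. Ttr, a carrier of retinol in blood, had 106 ± 41.6 CPM (SD, n = 3) in QCM and 70.5 ± 11.2 CPM (SD, n = 3) in SCM, with an edgeR log2 ratio of -0.80 (adjusted p 0.927) that was -0.26 without QCM replicate 1. Fabp5, a fatty acid carrier that also binds retinoic acid, had 96.3 ± 64.5 and 66.6 ± 19.1 CPM, with an edgeR log2 ratio of -0.77 that was 0.13 without QCM replicate 1. In the list of uptake, 4 of 5 were below 0, and Stra6l and Scarb1, the latter a receptor that takes up carotenoids, had edgeR log2 ratios of 0.18 and -0.22, the former -0.03 without SCM replicate 1.

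All 8 tested genes of retinyl ester synthesis and hydrolysis were below 0, with a median of -1.12, and 5 of them had an unadjusted p under 0.05 in edgeR, where 3.08% of all genes did so below 0. Leaving out QCM replicate 1 gave 9 of 9 below 0 (median -0.53), replicates 2 and 3 alone gave 8 of 8 (median -0.50), and adding the ribosomal protein share to the fit gave 7 of 8 (median -0.16). Ces2a, a carboxylesterase of the gut, had 638, 290 and 356 CPM in the QCM samples and 111, 201 and 233 CPM in the SCM samples. These groups did not overlap, as for 2.09% of all genes in this direction, and its edgeR log2 ratio was -1.45 ± 0.45 (SE), with an adjusted p of 0.927. It was -0.86 without QCM replicate 1, -0.62 in replicates 2 and 3 and -0.59 with the ribosomal protein share in the fit. Ces2e, a gene of the same family, had 258, 118 and 159 CPM in QCM and 46.4, 79.8 and 113 CPM in SCM, also without overlap, and an edgeR log2 ratio of -1.36 ± 0.45 (SE) with an adjusted p of 0.927. Under the same changes that of Ces2e was -0.81, -0.56 and -0.46. Several carboxylesterases of this list are near copies of each other, so reads may have been split between them.

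Of the retinol and retinal oxidoreductases, 13 of 15 were below 0, and Dhrs4 and Adh5 had edgeR log2 ratios of -0.63 and -0.86, which were -0.23 and -0.15 without QCM replicate 1. Of the 3 retinal dehydrogenases tested, Aldh1a7, a near copy of Aldh1a1, had an edgeR log2 ratio of -0.30 that was 0.11 without QCM replicate 1, and Aldh1a3 one of 1.13 with an adjusted p of 0.927. Of the enzymes that break down retinoic acid only Cyp26b1 was tested, at 0.581 CPM and a log2 ratio of 0.35, and Cyp26c1 was under the filter. The receptors and their partners lay on both sides of 0, with medians of -0.05 over 5 and 0.04 over 13 genes. Rxrb and Rarg had edgeR log2 ratios of -0.42 and 0.09, and the co-regulators Ncor1 and Ncoa1 0.04 and 0.09. Without QCM replicate 1 the sign turned for Cyp26b1 (-0.05), Rarg (-0.03) and Ncoa1 (-0.07).

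**Figure D5:**
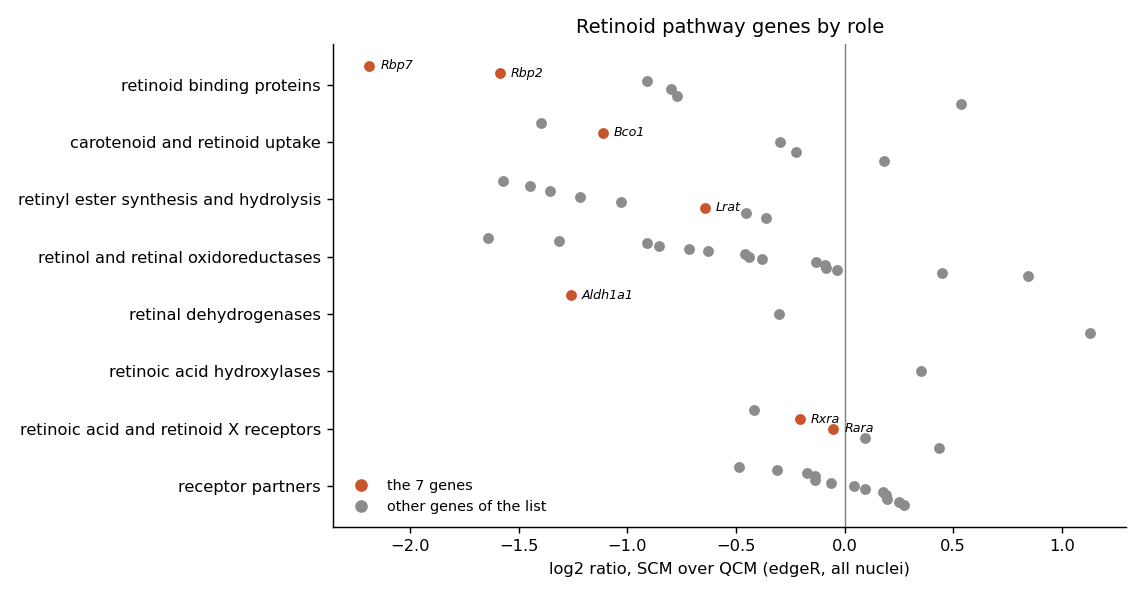
edgeR log2 ratio of SCM to QCM (horizontal axis) for the 56 pathway genes tested, in rows by role; orange points are the 7 genes and grey points the rest of the list. Rbp7 has the lowest value, -2.19, the 8 genes of retinyl ester synthesis and hydrolysis are all below 0, and the receptors and their partners lie on both sides of 0.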

How the data were processed

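The authors counted reads with CellRanger on mm10 with Ensembl 98 annotation (Cell Ranger 2.1.1 in the submitters' processing notes), removed outlying nuclei, and deposited UMI counts per gene and nucleus, a cluster number per nucleus, and the mitochondrial share as a fraction, which was used only to describe the deposited nuclei. No doublet caller was run, and an alternative left out the 5% of nuclei with the most UMIs. UMIs of all nuclei of a sample, or of those of a cluster where it had at least 10, were added up and compared with the edgeR 4.0.16 quasi-likelihood test (TMM, filterByExpr minimum count 10, Benjamini-Hochberg, threshold 0.05), with DESeq2 1.42.0 and limma 3.58.1 as alternatives, in R 4.3.3 and Python 3.11.15. The edgeR fit was also run on simulated counts. These held no sample that stands apart as QCM replicate 1 does, so that run says nothing about its effect. Symbols and gene coordinates are from GENCODE M21 (31244 of 31319 identifiers matched) and promoter windows from RefSeq (7 of 7 genes). Named genes were the 7, the 2 with the highest mean CPM of each pathway list and the 3 most like each of the 7. An alternative without the nuclei of shared barcodes was added after seeing the data. The genes, lists and tests were chosen with earlier results of these data known. Some genes of the marker lists were not analysed here.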

Additional observations from a re-analysis of the deposited data

How the results depend on the processing

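Rbp7 was below 0 under all 18 alternatives, and its log2 ratio moved to -1.56 with replicates 2 and 3 alone. It was chosen for its lower counts in SCM in these same samples, which the alternatives reuse, so nothing is read from its sign. With those replicates alone Rbp2 was at 0.23, Aldh1a1 at 0.0675, the median of the pathway list at -0.12 and that of the enterocyte markers at -0.35. Adding the ribosomal protein share gave 0.44 for Rbp2, 0.69 for Aldh1a1, 0.73 for Bco1, 0.0124 for Rara, -0.0581 for the pathway list and 0.23 for the enterocyte markers. Rara was at 0.0333 by voom and 0.11 by library size alone. The medians over all genes were then 0.0539 and 0.14, and relative to them Rara was at -0.0206 and -0.0266. As a plain ratio of CPM with 9 clusters weighted equally Rara was at 0.0991. The pathway list was at -0.0907 with equal cluster weights, and at -0.13 by library size alone, beside that median of 0.14. The cause of these moves was not tested. DESeq2 called 21 genes where edgeR called 0.

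Leaving out 1 sample at a time gave log2 ratios from -1.71 to 0.11 for Aldh1a1, -1.56 to 0.0532 for Bco1, -0.12 to 0.0052 for Rara, -0.50 to -0.13 for the pathway list and -1.68 to -0.37 for the enterocyte markers, the highest without QCM replicate 1 in each case. In cluster 8 these ranges were -1.08 to 0.98 for Rbp2, -0.27 to 0.75 for Aldh1a1, -0.72 to 0.41 for Bco1, -0.038 to 0.50 for Rara and -0.10 to 0.37 for Rxra. The media difference of the cluster 8 excess ran from -0.0991 to 1.19 for Rbp2, -0.13 to 1.24 for Aldh1a1, -0.71 to 0.85 for Bco1, -0.69 to 1.04 for Lrat, -0.0556 to 0.49 for Rara and -0.0417 to 0.25 for Rxra. The share of nuclei with an Aldh1a1 UMI, SCM less QCM, ran from -1.69 to 0.0545 percentage points. Also in cluster 8, Bco1 was at 0.12 and Rara at -0.038 with at least 30 nuclei per sample, and with replicates 2 and 3 alone Bco1 was at 0.58, Rara at -0.15 and Rxra at -0.0348. The share difference was 0.0476 for Lrat thinned to 500 UMIs, and -0.21 for Rara and -1.98 for Rxra without thinning.

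Samples of the same number correlated at 0.36, 0.46 and -0.10 in their deviations from the group means, and SCM replicate 3 correlated best with QCM replicate 2 (0.17), so the numbers were not taken to pair the samples. Mitochondrial shares were alike within numbers, with medians per nucleus of 1.01% and 0.803%, 1.83% and 2.21%, and 3.71% and 3.54% in QCM and SCM, as a hint from the data and not the design. With the replicate number as a block edgeR called 0 genes, with 1179 at an unadjusted p under 0.05, Rbp2 was at -0.90, Aldh1a1 at -0.64 and Bco1 at -0.59, and in cluster 8 Bco1 was at 0.0336 and Rxra at -0.0022. Depth limits Rbp7 most, with 2 UMIs in SCM replicate 1 and few per cluster.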

Other observations

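Rdh10, the enzyme that oxidises retinol to retinal, had the opposite direction to most of the pathway and was picked out after its values were seen. It had 34.2, 37.7 and 36.1 CPM in the QCM samples and 65.3, 105 and 48.7 CPM in the SCM samples, which did not overlap, as for 4.99% of all genes in this direction. Its edgeR log2 ratio was 0.85 ± 0.27 (SE), with an adjusted p of 0.927. It was 0.93 without QCM replicate 1, 0.93 without SCM replicate 1, 0.80 without the nuclei of shared barcodes and 0.70 when the ribosomal protein share was added to the fit.

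Aldh1a3, which oxidises retinal to retinoic acid, had 2.02, 1.24 and 2.16 CPM in the QCM samples and 8.35, 3.61 and 2.39 CPM in the SCM samples. The groups did not overlap, as for 4.99% of all genes in this direction. Its edgeR log2 ratio of 1.13 ± 0.53 (SE, adjusted p 0.927) was 0.55 without SCM replicate 1. This gene, too, was chosen after its values were seen.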
